A study of Mus musculus with 23 samples.

Results

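Lower glycolysis is the run of enzymes that takes fructose bisphosphate down to pyruvate. It was followed here through 7 genes chosen by name, Aldoa, Aldoc, Tpi1, Pgk1, Pgam1, Eno2 and Pkm, out of 19938 genes measured. No level or difference entered the rule that named the 7, but they were chosen with earlier results of these data known. All 7 were measured on all 23 arrays and no filter on low values was applied, so every count below is over all 7. They were read in endothelial cells and tumour cells sorted from mammary tumours of the mouse breast cancer cell line Py2T, grown in female FVB/N mice. Endothelial cells came from untreated tumours (3 arrays), tumours given nintedanib at 50 mg per kg for 7 days (3 arrays) and tumours given it for 21 days (5 arrays). Tumour cells came from the same 3 conditions on 3, 4 and 5 arrays. Nintedanib is an inhibitor of the receptor kinases for the VEGF, PDGF and FGF growth factors. All tumours came from a single cell line, the untreated ones were matched in size to the 21-day ones alone, and the labels do not say whether animals were pooled. The arrays are labelled as biological replicates with no statement of which animals they came from, so the p-values measure the spread between these arrays.

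In glycolysis, aldolase cleaves fructose bisphosphate into a pair of triose phosphates, which triose phosphate isomerase interconverts. Phosphoglycerate kinase then makes the first ATP of the pathway, phosphoglycerate mutase moves the remaining phosphate, enolase removes water, and pyruvate kinase makes ATP again as pyruvate is formed. Several of these genes are textbook targets of the hypoxia-inducible transcription factors, and tumour cells are known for using the pathway also where oxygen is present.

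The 4 promoters below belong to the members whose 21-day tumour cell arrays all lay above the untreated ones. Each is the 250 bases upstream of a RefSeq transcription start on GRCm38.p6, written 5′ to 3′ on the gene's strand. Capitals mark ACGTG or its reverse complement CACGT, a common form of the core of the hypoxia response element, searched on both strands. Other forms of the core were not searched. The windows are chr7:126799255-126799504 (minus strand) for Aldoa, chr6:124814159-124814408 (minus) for Tpi1, chrX:106186850-106187099 (plus) for Pgk1 and chr19:41911621-41911870 (plus) for Pgam1.
Aldoa: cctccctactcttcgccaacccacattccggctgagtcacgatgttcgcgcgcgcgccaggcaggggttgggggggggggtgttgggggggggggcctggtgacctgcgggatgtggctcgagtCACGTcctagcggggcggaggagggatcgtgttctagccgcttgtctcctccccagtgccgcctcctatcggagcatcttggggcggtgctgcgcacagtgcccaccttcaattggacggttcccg
Tpi1: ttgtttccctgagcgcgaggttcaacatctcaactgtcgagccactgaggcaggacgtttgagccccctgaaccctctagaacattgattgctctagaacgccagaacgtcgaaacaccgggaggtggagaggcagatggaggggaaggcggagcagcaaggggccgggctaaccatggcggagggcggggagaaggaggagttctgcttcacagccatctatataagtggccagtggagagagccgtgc
Pgk1: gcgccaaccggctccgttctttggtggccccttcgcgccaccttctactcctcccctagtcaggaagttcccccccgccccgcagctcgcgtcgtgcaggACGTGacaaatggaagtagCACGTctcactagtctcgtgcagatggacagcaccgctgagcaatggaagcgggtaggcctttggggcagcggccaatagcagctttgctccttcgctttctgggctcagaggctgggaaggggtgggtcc
Pgam1: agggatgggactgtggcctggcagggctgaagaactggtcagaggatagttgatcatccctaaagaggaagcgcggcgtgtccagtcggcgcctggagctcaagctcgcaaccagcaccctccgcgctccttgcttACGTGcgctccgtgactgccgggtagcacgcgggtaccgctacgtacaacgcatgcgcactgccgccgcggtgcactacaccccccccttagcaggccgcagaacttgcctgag
The Pgk1 window held 2 matches, beginning 150 and 131 bases upstream of the start. The Aldoa window printed held 1 at 126 bases and the Pgam1 window 1 at 114 bases, while the Tpi1 window held 0. Aldoa has further RefSeq starts. Its window chr7:126799179-126799428 held the same match at 202 bases, and its window chr7:126800448-126800697 held 0. Counting every RefSeq start, 4 of 7 members had a match in at least 1 window, Pkm being the fourth, against 18.5% of 27025 genes. A gene with more windows has more places for a match. Counted by window, 5 of the members' 11 held a match, against 16.6% of 32851 windows, with the same Aldoa match counted in overlapping windows. Some matches can also be part of CACGTG, which was found in 6.02% of all windows and in 0 of the 11 windows of the members. These are letter matches and no binding was measured.

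Endothelial markers separated the cell types, whereas epithelial markers did so in part. The mean of 10 endothelial markers was 9.74 to 10.40 log2 units on endothelial arrays and 3.84 to 4.09 on tumour cell arrays, and all 10 were called higher in endothelial cells at each time. The mean of 7 epithelial markers was 6.60 to 7.27 on tumour cell arrays. It was 5.36 to 6.73 on the endothelial arrays, except replicate 4 of the 21-day group, which stood apart at 8.15, so the ranges of the cell types overlapped. Of these 7 epithelial markers, 2, 3 and 3 were called lower in endothelial than tumour cells of untreated, 7-day and 21-day tumours and 0 were called higher, while 4, 2 and 4 had a positive difference. The mean of 12 macrophage markers reached 7.34 on untreated endothelial replicate 1, and 7.35 and 6.78 on 21-day endothelial replicates 3 and 4. It was 4.33 to 5.95 on the other endothelial arrays and 4.01 to 4.96 on tumour cell arrays. The mean of 8 pericyte markers was 5.73 to 6.47 on endothelial and 4.61 to 4.87 on tumour cell arrays. The mean of 9 fibroblast markers was 5.80 to 7.07 on endothelial and 6.05 to 6.62 on tumour cell arrays, and that of 2 erythroid markers 4.44 to 5.06 and 4.44 to 4.81. The 21-day differences of endothelial Pgk1, Aldoa, Pkm and Tpi1, and the cell type calls, are therefore also given without the 3 endothelial arrays highest in macrophage markers. Arrays of a group correlated at 0.983 or higher across genes in tumour cells and 0.935 or higher in endothelial cells, and the typical gene's residual SD (median over genes) was 0.156 and 0.255 log2 units.

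**Figure D1:**
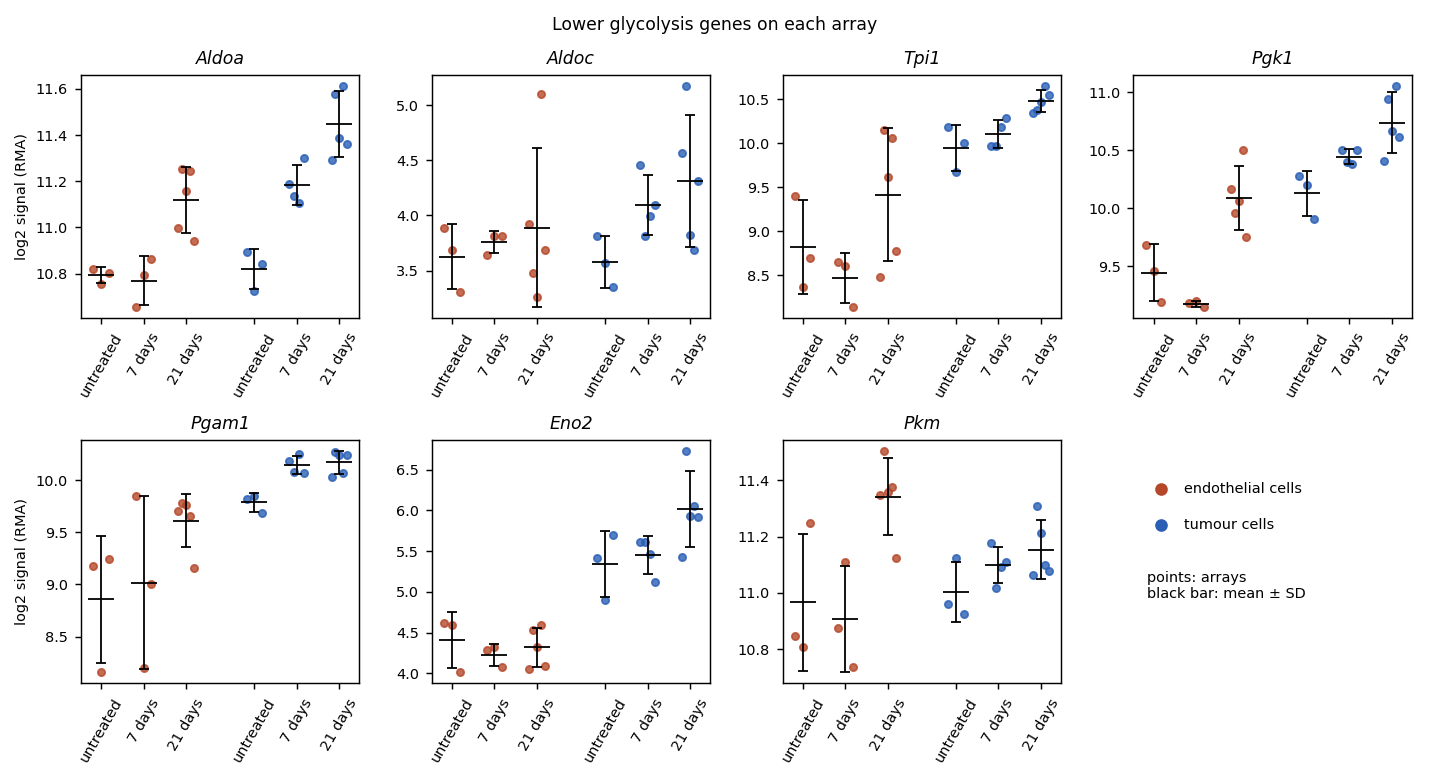
Log2 signal of each member on every array (vertical axes, one scale per gene) in endothelial cells (left block) and tumour cells (right block) that were untreated or treated for 7 or 21 days. Points are arrays and black bars are the mean ± SD; the Aldoa points of 21-day tumour cells, 11.29 to 11.61, all lie above those of untreated tumour cells, 10.72 to 10.89.

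In tumour cells, 21 days of nintedanib went with higher Aldoa, by 1.54-fold, and this was the only member called. A gene was called where the adjusted p of limma's test, over all 19938 genes, was under 0.05. The 1 of 7 members called compares with 0.0903% of all genes called in this comparison, or 0.0752% called higher. An unadjusted p under 0.05 was reached by 6 of 7, against 10.1% of genes. All 7 members had a positive difference, as did 46.8% of all genes. The median of the members was 0.61 log2 units, against -0.01 over all genes, and 1.26% of genes had a difference at or above it.

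The aldolases were taken first. Aldoa, the widely expressed aldolase, read 10.89, 10.72 and 10.84 log2 units on the untreated tumour cell arrays, 11.19, 11.14, 11.10 and 11.30 on the 7-day arrays and 11.29, 11.58, 11.39, 11.61 and 11.36 on the 21-day arrays. All 7-day and all 21-day arrays lay above all untreated arrays, while the 7-day and 21-day arrays overlapped by a narrow margin. Aldoa averaged 11.45 ± 0.14 in 21-day cells and 10.82 ± 0.09 in untreated cells (SD, n = 5 and 3), a difference of 0.63 ± 0.09 log2 units (SE) with adjusted p = 0.0281. The call was lost without any 1 of 5 arrays (untreated replicate 2 or 3, 7-day replicate 1 or 2, or 21-day replicate 2), at adjusted p of 0.0559 to 0.135, while the difference stayed between 0.58 and 0.67 over all 12 arrays left out in turn. In 7-day cells the difference from untreated was 0.36 ± 0.09 (adjusted p = 0.13).

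Aldoc, the aldolase best known from brain, was read near the low end of the scale, at the 31.8th percentile of mean level over genes. It read 3.81, 3.57 and 3.35 in untreated tumour cells, 4.46, 3.81, 3.997 and 4.10 in 7-day cells and 4.57, 5.18, 3.82, 3.68 and 4.31 in 21-day cells. The 21-day arrays spread over more than a log2 unit, and their lowest lay below the highest untreated array. The difference of 0.74 ± 0.29 between 21-day and untreated cells did not pass (adjusted p = 0.407), although it was the largest in size of the 7. One value, 3.8143, came back on 4 of the 23 arrays, so fine differences in this gene are poorly resolved.

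Tpi1, the triose phosphate isomerase, read 10.18, 9.67 and 9.998 in untreated tumour cells, 9.97, 9.96, 10.19 and 10.28 in 7-day cells and 10.35, 10.38, 10.47, 10.65 and 10.54 in 21-day cells. The 21-day arrays lay above all arrays of both other groups, and the untreated and 7-day arrays overlapped. The 21-day cells differed from untreated by 0.53 ± 0.12 (adjusted p = 0.162) and from 7-day cells by 0.38 ± 0.11 (adjusted p = 0.16), and neither passed.

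Pgk1, the phosphoglycerate kinase of most tissues, read 10.28, 10.20 and 9.91 in untreated tumour cells, 10.50, 10.40, 10.38 and 10.50 in 7-day cells and 10.41, 10.94, 10.66, 11.06 and 10.62 in 21-day cells. Both treated groups lay above all untreated arrays. The 21-day difference from untreated was 0.61 ± 0.14 (adjusted p = 0.144) and the 7-day difference was 0.32 ± 0.14 (adjusted p = 0.443).

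Pgam1, the phosphoglycerate mutase found outside muscle, read 9.82, 9.85 and 9.69 in untreated tumour cells, 10.19, 10.07, 10.25 and 10.07 in 7-day cells and 10.03, 10.27, 10.24, 10.07 and 10.24 in 21-day cells. Again neither treated group overlapped the untreated one, and the treated groups covered the same range as each other. The difference from untreated was 0.38 ± 0.08 at 21 days (adjusted p = 0.125) and 0.36 ± 0.08 at 7 days (adjusted p = 0.102). Between 21 and 7 days it was 0.02, with a 95% interval of -0.14 to 0.19.

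Eno2 encodes the enolase known from neurons. It read 5.41, 4.91 and 5.70 in untreated tumour cells, 5.61, 5.61, 5.47 and 5.12 in 7-day cells and 5.43, 6.73, 5.94, 6.06 and 5.92 in 21-day cells. A single 21-day array, replicate 1, lay within the untreated range, and the other 4 lay above it. The difference of 0.67 ± 0.25 between 21-day and untreated cells did not pass (adjusted p = 0.387), and at 7 days it was 0.11 ± 0.26.

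Pkm, the pyruvate kinase of most tissues and tumours, read 10.96, 11.13 and 10.92 in untreated tumour cells, 11.18, 11.02, 11.09 and 11.11 in 7-day cells and 11.07, 11.31, 11.21, 11.10 and 11.08 in 21-day cells. The 3 groups overlapped throughout. The 21-day difference was 0.15 ± 0.08 (adjusted p = 0.559), with a 95% interval of -0.02 to 0.32, the smallest of the 7 members. The values are per gene and do not separate the splice forms of pyruvate kinase.

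Taken by overlap, the 21-day arrays lay wholly above the untreated ones for 4 of 7 members (Aldoa, Tpi1, Pgk1 and Pgam1), against 2.99% of all genes. After 7 days this held for 3 of 7 (Aldoa, Pgk1 and Pgam1), against 5.32%. At 7 days 0 of 7 members were called by limma, where 0.507% of all genes were, and 3 of 7 had an unadjusted p under 0.05, against 11% of genes. Between 21 and 7 days 0 of 7 were called, where 1.22% of genes were, and 4 of 7 had an unadjusted p under 0.05, against 11.9%. Only Tpi1 had 21-day arrays wholly above the 7-day ones, against 2.94% of genes. The comparisons of 7 and 21 days with untreated cells share the same 3 untreated arrays. In bulk RNA of sorted cells, fewer cells of a type and less RNA per cell cannot be told apart.

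Other signals moved beside these. The mean of 11 isolation stress genes, immediate early and heat shock genes that cells switch on while they are dissociated, was 9.08 to 9.52 log2 units in untreated tumour cells, 9.91 to 10.31 in 7-day cells and 9.39 to 10.09 in 21-day cells. Untreated arrays lay below all 7-day ones, so stress and 7 days of treatment cannot be told apart in tumour cells. The 21-day arrays overlapped the untreated ones. With the stress mean as a covariate, Aldoa at 21 days stayed called, at 0.73 with adjusted p = 0.0483. With the macrophage mean as a covariate it was 0.62 with adjusted p = 0.0344. The mean of 9 mitosis genes was 6.55 to 6.83 in untreated, 6.12 to 6.41 in 7-day and 6.39 to 7.38 in 21-day tumour cells, and its part in the result was not tested.

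**Figure D2:**
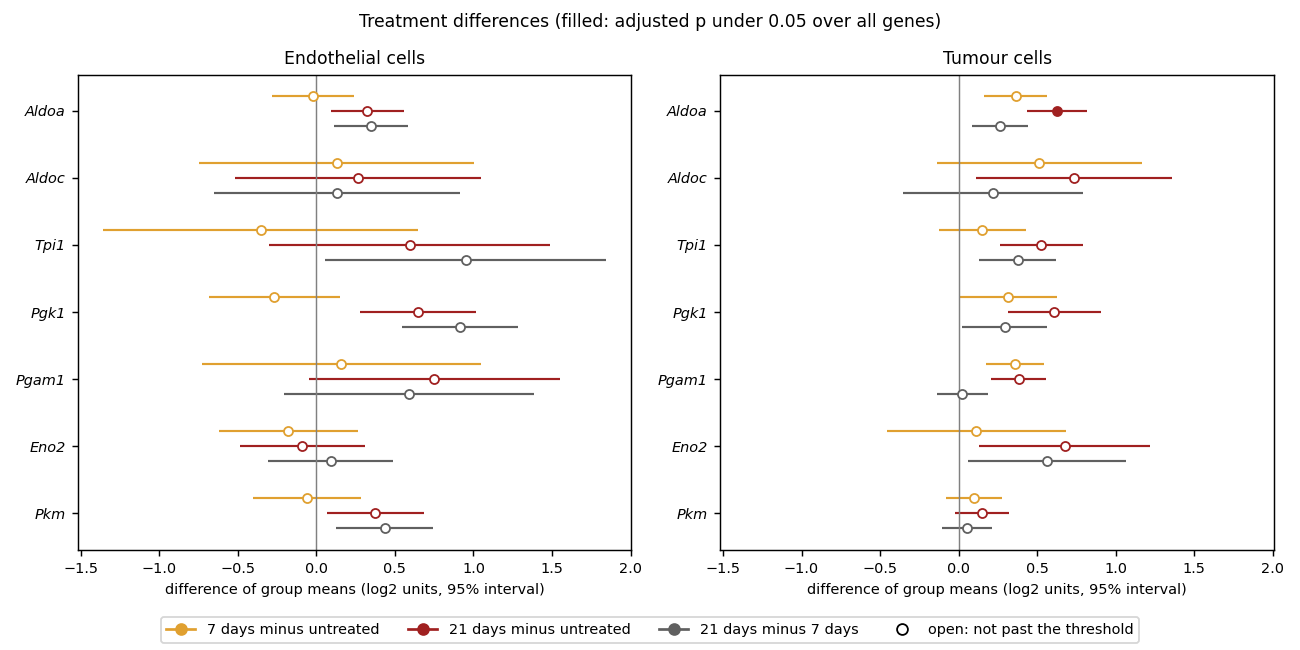
Differences between treatment groups for each member in endothelial cells (left) and tumour cells (right), in log2 units on the horizontal axis, with 95% intervals from limma. Filled points passed an adjusted p of 0.05 over all genes, and the only filled point is Aldoa in tumour cells, 21 days minus untreated, at 0.63.

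In endothelial cells no treatment comparison called a member, nor any other gene. By limma 0 of 7 members and 0% of all genes were called at 7 days against untreated, at 21 days against untreated and at 21 against 7 days. An unadjusted p under 0.05 was reached by 0, 3 and 4 of 7 members in these comparisons, against 8.17%, 4.18% and 9.4% of all genes. The members' median difference was -0.06, 0.37 and 0.43 log2 units, against 0.06, 0.01 and -0.04 over all genes.

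Endothelial Pgk1 read 9.68, 9.45 and 9.19 on untreated arrays, 9.18, 9.20 and 9.15 on 7-day arrays and 10.16, 9.96, 10.07, 10.50 and 9.75 on 21-day arrays. The 21-day arrays lay above every other endothelial array, and the 7-day arrays lay within 0.05 of each other. Pgk1 differed by 0.91 ± 0.17 between 21-day and 7-day cells (adjusted p = 0.312) and by 0.65 ± 0.17 between 21-day and untreated cells (adjusted p = 0.943). Without the 3 arrays highest in macrophage markers these differences were 0.78 ± 0.15 and 0.64 ± 0.16. In a fit over all 23 arrays the difference between 21 and 7 days was called, at adjusted p = 0.0128, as were 262 of 19938 genes in that fit. With the isolation stress mean as a covariate the Pgk1 difference between 21-day and untreated cells turned to -0.16 ± 0.27.

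Endothelial Aldoa read 10.82, 10.75 and 10.80 on untreated arrays, 10.65, 10.79 and 10.86 on 7-day arrays and 10.996, 11.25, 11.16, 11.24 and 10.94 on 21-day arrays. The 21-day arrays again lay above all others, while untreated and 7-day arrays overlapped. The difference was 0.32 ± 0.11 against untreated cells and 0.35 ± 0.11 against 7-day cells, with adjusted p = 1.00 and 0.431. Without the 3 arrays highest in macrophage markers these Aldoa differences were 0.28 ± 0.15 and 0.29 ± 0.13. With the isolation stress mean as a covariate the one against untreated cells was 0.12 ± 0.24. Pkm read 10.85, 10.81 and 11.25 on untreated arrays, 10.88, 11.11 and 10.74 on 7-day arrays and 11.35, 11.50, 11.36, 11.38 and 11.12 on 21-day arrays. The 21-day arrays lay above all 7-day arrays, by 0.43 ± 0.14 on average (adjusted p = 0.446), and overlapped the untreated ones. Without the same 3 arrays the Pkm difference between 21-day and 7-day cells was 0.42 ± 0.18. Arrays without overlap were thus found for 2 of 7 members at 21 days against untreated and 3 of 7 at 21 against 7 days, where 2.14% and 2% of all genes were higher without overlap.

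Tpi1 and Pgam1 varied most within endothelial groups. Tpi1 read 9.40, 8.36 and 8.69 on untreated arrays, 8.65, 8.60 and 8.14 on 7-day arrays and 8.48, 10.15, 9.61, 10.06 and 8.78 on 21-day arrays. The 21-day arrays fell into 3 above 9.5 and 2 below 9. The highest untreated array was replicate 1, the one high in macrophage markers and, at 6.42, highest of its group in the epithelial mean. That mean was 6.31, 6.32 and 8.15 on the 3 high 21-day arrays and 5.36 and 5.64 on the 2 low ones. The highest, replicate 2, had a macrophage mean of 5.28. Among 7-day arrays the epithelial mean was highest, at 6.73, on replicate 3, the lowest in Tpi1. The part of other cells was not tested. Tpi1 differed by 0.95 ± 0.40 between 21-day and 7-day cells (adjusted p = 0.517), and by 0.67 ± 0.42 without the 3 arrays highest in macrophage markers. Pgam1 read 9.18, 8.16 and 9.24 on untreated arrays, 9.85, 8.20 and 9.01 on 7-day arrays and 9.70, 9.78, 9.76, 9.65 and 9.16 on 21-day arrays. All 3 groups overlapped, and the difference of 0.75 ± 0.36 between 21-day and untreated cells had a 95% interval of -0.05 to 1.55.

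Aldoc and Eno2 were read low in endothelial cells. Aldoc read 3.89, 3.69 and 3.30 on untreated arrays, 3.64, 3.81 and 3.81 on 7-day arrays and 3.92, 3.48, 3.26, 5.10 and 3.69 on 21-day arrays. The array at 5.10 was replicate 4, the one that stood apart in epithelial markers. Eno2 read 4.62, 4.59 and 4.01 on untreated arrays, 4.29, 4.32 and 4.07 on 7-day arrays and 4.06, 4.53, 4.32, 4.59 and 4.10 on 21-day arrays. It differed by -0.09 ± 0.18 between 21-day and untreated cells, with all groups overlapping. The isolation stress mean was 8.18 to 8.71 on untreated, 9.25 to 9.53 on 7-day and 9.10 to 9.87 on 21-day endothelial arrays, so untreated arrays lay below all treated ones and stress and treatment cannot be told apart in these cells.

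**Figure D3:**
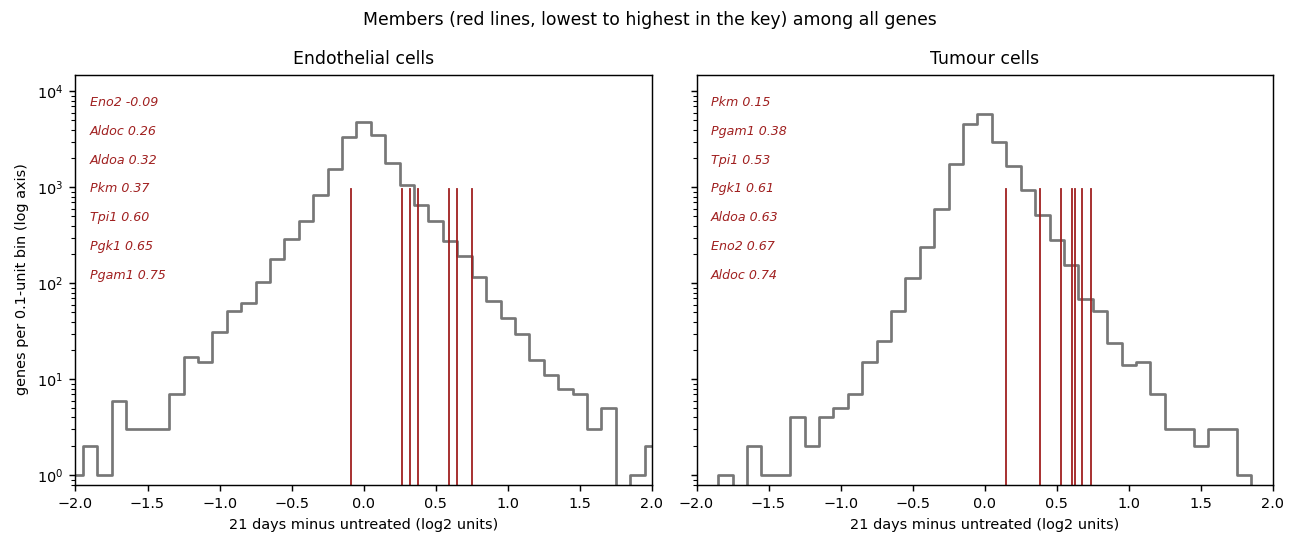
Distribution of the 21-day minus untreated difference (horizontal axis, log2 units, drawn from -2 to 2) over all 19938 genes, as genes per bin on a log axis, in endothelial cells (left) and tumour cells (right). Red lines mark the 7 members, whose median is 0.37 in endothelial and 0.61 in tumour cells.

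Whether a treatment difference itself differed between the cell types was tested as an interaction. By limma 0 of 7 members were called at 7 days, against 0.0953% of all genes, and 0 of 7 at 21 days, against 0% of all genes. An unadjusted p under 0.05 was reached by 2 of 7 at each time, against 11% and 5.33% of genes. At 7 days these were Aldoa, with an endothelial minus tumour cell effect of -0.39 ± 0.14 (adjusted p = 0.355), and Pgk1, at -0.58 ± 0.24 (adjusted p = 0.382). At 21 days they were Aldoa, at -0.30 ± 0.13 (adjusted p = 0.887), and Eno2, at -0.76 ± 0.33 (adjusted p = 0.872). So the call of Aldoa in tumour cells is not shown to differ from the endothelial difference.

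Endothelial cells had lower levels of most members than tumour cells. In untreated tumours 4 of 7 members were called lower in endothelial cells, against 10.2% of all genes called lower and 18.3% called in all. After 7 days 5 of 7 were called lower, against 17% lower and 40% in all, and after 21 days 4 of 7, against 16.3% lower and 32% in all. The isolation stress mean was 8.18 to 8.71 on endothelial and 9.08 to 9.52 on tumour cell arrays of untreated tumours, with no overlap. With it as a covariate 0 of the 4 calls in untreated tumours held. Tpi1 was -0.46 ± 0.43 (adjusted p = 0.619), Pgam1 -0.47 ± 0.39 (0.563), Pgk1 -0.56 ± 0.25 (0.195) and Eno2 -0.99 ± 0.37 (0.123). At 7 days, where it was 9.25 to 9.53 on endothelial and 9.91 to 10.31 on tumour cell arrays, 3 of the 5 calls held, and Tpi1 (adjusted p = 0.061) and Pgam1 (0.146) were lost. Stress means of the cell types did not overlap in untreated or 7-day tumours, so stress and cell type cannot be told apart there. No member was called higher at any time in the fit over all arrays, but after renewed quantile normalization Pkm was called higher in endothelial cells at 21 days, by 0.29 (adjusted p = 0.0193). Endothelial arrays lay wholly below tumour cell arrays for 4, 5 and 4 of 7 members at the 3 times, against 18%, 17.7% and 12% of all genes.

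Tpi1 averaged 8.82 ± 0.53 in untreated endothelial cells and 9.95 ± 0.26 in untreated tumour cells (SD, n = 3 each). It was lower by -1.13 ± 0.34 log2 units in untreated, -1.64 ± 0.32 in 7-day and -1.06 ± 0.26 in 21-day endothelial cells, with adjusted p = 0.0234, 0.000576 and 0.00416. Endothelial and tumour cell arrays of Tpi1 did not overlap at any of these times.

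Pgk1 was lower by -0.69 ± 0.17, -1.27 ± 0.16 and -0.65 ± 0.13 in endothelial cells at the same times, with adjusted p = 0.0076, 7.12e-06 and 0.000962. Its arrays were apart in untreated and 7-day cells, whereas at 21 days the highest endothelial array, at 10.50, was above the lowest tumour cell array, at 10.41. At 7 days the median of all genes was itself shifted by 0.11 between the cell types, and with each array centred on its median the Pgk1 difference was -1.38.

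Pgam1 was lower by -0.93 ± 0.29 in untreated and -1.13 ± 0.28 in 7-day endothelial cells, with adjusted p = 0.0322 and 0.00363. At 21 days its arrays still did not overlap but the difference of -0.56 ± 0.23 did not pass (adjusted p = 0.0677). It passed with only those groups in the fit (adjusted p = 0.00604), with array weights (0.0119) and with median centring (0.04). Eno2 was lower by -0.93 ± 0.26, -1.22 ± 0.24 and -1.70 ± 0.20, with adjusted p = 0.0144, 0.000684 and 1.98e-06, and its arrays did not overlap at any time.

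Aldoa was called lower in endothelial cells of treated tumours, by -0.41 ± 0.10 at 7 days (adjusted p = 0.00266) and -0.33 ± 0.08 at 21 days (adjusted p = 0.00372). In untreated tumours it was not called and averaged 10.79 ± 0.03 in endothelial cells and 10.82 ± 0.09 in tumour cells, with a 95% interval of the difference of -0.24 to 0.19. Pkm was called at no time, with differences of -0.04 ± 0.12, -0.19 ± 0.11 and 0.19 ± 0.09. Aldoc differed by 0.05 ± 0.38, -0.34 ± 0.35 and -0.42 ± 0.29, none past the threshold. Without 21-day endothelial replicate 4, the array high in epithelial markers, the last of these was -0.73 and passed (adjusted p = 0.0256). The same members were called at each time without the 3 endothelial arrays highest in macrophage markers. The count for untreated tumours rested on few arrays. It was 1 (Pgk1) without tumour cell replicate 1 or 3, 2 without endothelial replicate 2 or 3 and 3 without tumour cell replicate 2. The Pgam1 difference was -0.58 without endothelial replicate 2, and the call of Pgam1 at 21 days was gained without untreated endothelial replicate 2 or 7-day endothelial replicate 1 or 2.

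**Figure D4:**
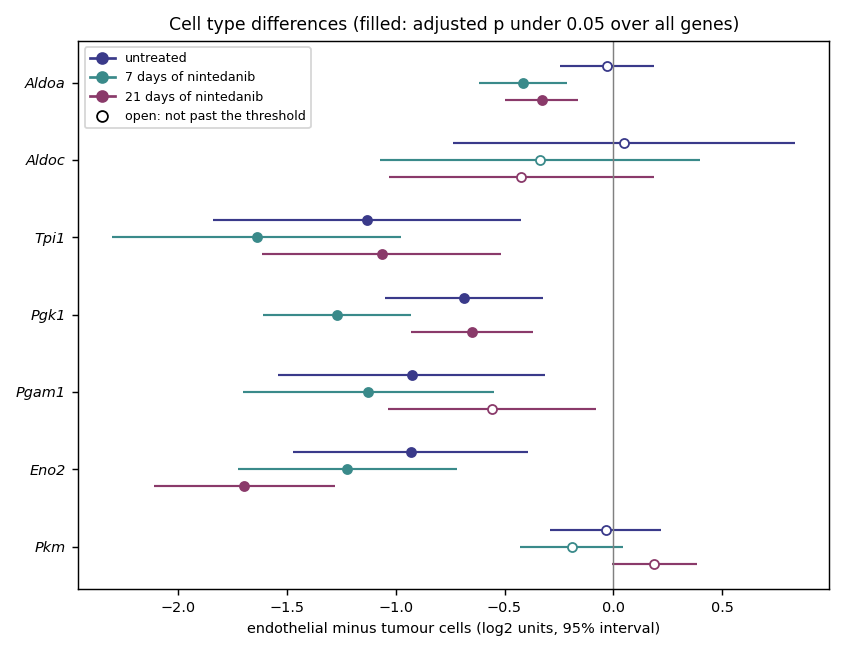
Endothelial minus tumour cell difference of each member (horizontal axis, log2 units) in untreated, 7-day and 21-day tumours, with 95% intervals from limma. Filled points passed an adjusted p of 0.05 over all genes: Tpi1, Pgk1 and Eno2 at all 3 times, Pgam1 in untreated and 7-day tumours and Aldoa in treated tumours, all below 0.

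Across the 6 groups the order of levels differed between members. For Aldoa, Aldoc, Tpi1, Pgk1, Pgam1 and Eno2 the highest mean was in 21-day tumour cells, and for Pkm it was in 21-day endothelial cells, at 11.34 ± 0.14. Neighbours in these orders mostly overlapped. The gaps without overlap were those below 21-day endothelial cells for Aldoa (0.30) and Pgk1 (0.65), below 21-day tumour cells for Tpi1 (0.38), below 7-day tumour cells for Pgk1 (0.32) and Pgam1 (0.36), and below untreated tumour cells for Eno2 (0.93).

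Related enzymes were read from the same arrays. Of 10 isozymes of the members 7 were measured, and 0 were called in any treatment comparison. Bpgm, a mutase best known from red cells, differed by 0.66 ± 0.17 between 21-day and untreated tumour cells (adjusted p = 0.196). In 21-day endothelial cells Bpgm differed by 0.75 ± 0.29 from untreated and by 0.80 ± 0.29 from 7-day cells. Eno3, the enolase known from muscle, differed by 0.30 ± 0.17 between 21-day and untreated tumour cells. It was lower in endothelial cells at each time, by -2.32 ± 0.47 in untreated, -1.87 ± 0.44 in 7-day and -2.43 ± 0.37 in 21-day cells. Gapdhs, Pgk2, Pgam2, Eno4 and Pklr differed by -0.09 to 0.11 in 21-day against untreated cells of both types.

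Of 12 measured genes of the other steps of glycolysis and of glucose and lactate transport, 1 was called higher in treated tumour cells. Over all genes 0.396% were called higher at 7 days and 0.0752% at 21 days. Pfkp, the platelet form of phosphofructokinase just above aldolase, rose by 1.36 ± 0.18 at 7 days (adjusted p = 0.0114) and by 1.17 ± 0.17 at 21 days (adjusted p = 0.0397), both against untreated. The 12 had a median of 0.14 at 21 days, with 8 positive, where 46.8% of all genes were positive. Pfkl, at 0.86 ± 0.16 (adjusted p = 0.0745), and Ldha, at 0.50 ± 0.12 (adjusted p = 0.173), were higher at 21 days without being called. The lowest of the 12 were Slc16a3 (-0.19) and Pfkm (-0.18). Of the 12, 3 were called lower and 1 higher in untreated endothelial than tumour cells, against 10.2% and 8.18% of all genes. Pfkm (-1.36), Ldhb (-1.54) and Slc16a1 (-2.07), a monocarboxylate transporter, were lower and Pfkp (2.27) was higher. After 7 days 3 were called lower and 4 higher, against 17% and 23% of all genes. After 21 days 4 were called lower and 2 higher, against 16.3% and 15.7%. Of 19 measured genes of branches off the pathway, 0 were called in any treatment comparison. In untreated tumours 6 of the 19 were called lower and 2 higher in endothelial cells, against 10.2% and 8.18% of all genes. The median of the 19 was -0.01. Among the lower ones were Psat1 (-1.87) and Phgdh (-1.68), which lead from phosphoglycerate to serine.

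Among 20 other textbook targets of the hypoxia-inducible factors, 17 had a positive difference in 21-day against untreated tumour cells, with a median of 0.39. Over all genes 46.8% were positive there. The test called 1 of the 20, against 0.0903% of all genes. Bnip3, a mitochondrial protein of mitophagy, rose by 2.24 ± 0.25 (adjusted p = 0.00811), and by 1.37 ± 0.23 against 7-day cells (adjusted p = 0.0163). In 21-day against untreated endothelial cells 14 of 20 were positive, with a median of 0.37, and 0 were called. Of all genes 53.2% were positive and 0% were called in that comparison.

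Genes most like the members were found from the mean of the 7 after scaling each to unit SD. Over the 12 tumour cell arrays these were Supt16 (r = 0.93), Lars (0.92), Pfkl (0.92), Tnfrsf1a (0.91) and Scarb2 (0.91), Pfkl being the liver form of phosphofructokinase. Over the 11 endothelial arrays they were Fmnl1 (r = 0.94), Hmg20b (0.92), Nt5c2 (0.92), Lyrm2 (0.91) and Urah (0.91). Each set of arrays spans 3 treatment groups, so group differences enter these correlations, which are given as descriptions.

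Several members were read by more than 1 set of probes. Pgk1 had 3 clusters, of which 2 were identical on all 23 arrays and the third correlated with them at 0.999. Pgam1 had 3, of which 2 were identical and the third correlated at 0.984, giving 1.04 ± 0.46 in place of 0.75 for 21-day against untreated endothelial cells. Pkm had 2, which correlated at 0.849, and the dimmer one gave 0.18 in both 21-day tumour and 21-day endothelial cells against untreated. RefSeq names 2 pseudogenes after Aldoa, 3 after Pgk1 and 2 after Pgam1, so for these genes RNA of a near-identical copy could share the probes, which was not tested.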

How the data were processed

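Total RNA of sorted cells was hybridised to 1 Affymetrix array per sample, 23 in all. RMA and oligo are the tools that the submitters' processing notes name, with versions not given in the sources used here. Each transcript cluster has a log2 signal as the authors deposited it, from 1.93 to 14.06. RMA equalises the arrays' distributions, so differences are relative to the other genes of an array. The number of arrays limits the precision.

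Of 35556 clusters, 21789 named 1 gene in the platform annotation, 1621 several and 12146 none listed. Names were updated through RefSeq (GRCm38.p6), which held 21698 of them. The cluster with the highest mean was kept for each of 19938 genes, 999 of which had several. Tests used limma 3.58.1 in R 4.3.3 on the log2 values, two-sided, with Benjamini-Hochberg adjustment over all genes per comparison and calls at 0.05. The 12 tumour cell and 11 endothelial arrays were fitted apart for treatment, and all 23 together for cell types and interactions. Intervals are limma's, at 95%. The fits were tested on simulated data.

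All 7 members are named in every comparison. Genes of 4 related lists are named where they passed or are isozymes, and the 5 most alike genes by Pearson r per cell type. The members and lists were chosen with earlier results of these data known. Alternatives were another set of arrays in the fit, a filter at the 30th percentile, a variance trend, array weights, the mean of clusters, renewed quantile normalization, median centring, stress or macrophage covariates, the replicate block and each array left out. Leaving out 3 macrophage-high endothelial arrays was chosen after seeing the data. Same-numbered arrays did not deviate together within tumour cells (10 pairs, r from -0.10 to 0.08), within endothelial cells (9 pairs, -0.15 to 0.11) or between the cell types (30 pairs, -0.11 to 0.08), so the numbers were not taken as pairs.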

Additional observations from a re-analysis of the deposited data

Results flagged for a closer look

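Of 21 tests for a sample far from the rest of its group, 1 was positive, and chance gives about 1 in 20. Pgam1 in 21-day endothelial replicate 5 read 9.16, below the next lowest array of its group at 9.65, a gap of 0.80 of the whole range. The cause was not tested.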

How the results depend on the processing

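The call of Aldoa in 21-day against untreated tumour cells was lost with the replicate number as a block, leaving 0 members called, at a difference of 0.60 and adjusted p = 0.142; over 12 arrays left out in turn 0 to 1 member was called. In a fit over all 23 arrays 1 member was called in 21-day against 7-day endothelial cells (Pgk1). For untreated endothelial against tumour cells 2 members were called with only those groups in the fit, 0 with the isolation stress covariate, and 1 to 4 with arrays left out. Pgam1 was among the members lost there, at adjusted p up to 0.563. At 7 days 3 were called with the stress covariate and 5 with any array left out, and at 21 days 4 to 5 with arrays left out. The block changed no other count of members called. Over all genes, 2 to 27 were called in 21-day against untreated tumour cells under the other alternatives, where 18 were called as reported. Of 2111 recomputed member values 2014 kept their direction and side of the threshold, 27 lost the call, 9 gained it and 61 turned sign, none of them called.

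Turned signs were as follows, with the cause not tested. With the isolation stress covariate, endothelial Aldoc was -1.02 at 7 days, -1.02 at 21 days and -8.45e-05 between 21 and 7 days, Pgam1 -0.946 and -0.483 at 7 and 21 days, and Pgk1 -0.158 and Tpi1 -1.19 at 21 days. With it, the cell types' difference of Aldoc at 7 days was 0.244, and the 21-day interactions of Pgk1 and Tpi1 were -0.0529 and -0.421. With the macrophage covariate, endothelial Aldoa and Tpi1 at 7 days were 0.0427 and 0.139, Aldoc and Eno2 between 21 and 7 days -0.0345 and -0.0541, and the untreated cell types' differences of Aldoc and Pkm -0.0952 and 0.00986. Without the 3 macrophage-high arrays, endothelial Aldoc and Eno2 between 21 and 7 days were -0.0606 and -0.00125, and the untreated cell types' differences of Aldoc and Pkm -0.0803 and 0.0249. With the replicate block endothelial Aldoc was -0.0736 at 21 days and -0.203 between 21 and 7 days. With renewed quantile normalization endothelial Aldoa and Pkm at 7 days were 0.0842 and 0.0189, and their untreated cell type differences 0.0563 and 0.0561. With array weights Aldoa at 7 days was 0.00604 in endothelial cells, and untreated cell type differences of Aldoc and Pkm were -0.00614 and 0.00139. With the mean of clusters, Pgam1 and Pkm between 21 and 7 days in tumour cells were -0.00135 and -0.00586, and Pkm between untreated cell types 0.0776. With median centring Aldoc between untreated cell types was -0.0322.

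With arrays left out in turn, the values that turned sign ranged as follows. In tumour cells, Eno2 at 7 days was -0.105 to 0.294 and Pgam1 between 21 and 7 days -0.000492 to 0.0592. In endothelial cells at 7 days, Aldoa was -0.0694 to 0.0343, Aldoc -0.0321 to 0.259, Pgam1 -0.255 to 0.569 and Pkm -0.162 to 0.079. At 21 days Aldoc was -0.0404 to 0.421 and Eno2 -0.287 to 0.0164, and between 21 and 7 days Aldoc was -0.17 to 0.292. Between untreated cell types, Aldoa was -0.0755 to 0.00985, Aldoc -0.0803 to 0.211 and Pkm -0.175 to 0.0443. The interaction of Pgam1 at 7 days was -0.613 to 0.211, and those of Pgk1 and Tpi1 at 21 days -0.0887 to 0.158 and -0.161 to 0.36.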
